A study of Mus musculus with 12 samples.

Results

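The insulin-like growth factor system was followed through 10 genes in osteoblasts and endothelial cells sorted from the long bones of mice with and without a human breast cancer in bone. The genes are the ligands Igf1 and Igf2, the receptors Igf1r and Igf2r, and the binding proteins Igfbp2, Igfbp3, Igfbp4, Igfbp5, Igfbp6 and Igfbp7. They were chosen by gene symbol out of 19937 genes on a microarray, and each of the 10 was measured by 1 probe set. All mice were female NOD SCID, an immunodeficient strain that lacks functional B and T cells. Tumor-bearing mice had received 200000 cells of MDA-MB-231 scp1833, a bone-seeking derivative of a human breast cancer line, into the heart, and tumors grew for about 2 weeks. The sources used here do not give the age of the mice, or whether tumor-free mice had a sham injection. Osteoblasts were sorted as cells without GFP, TR119, CD45, SCA1 or CD31 and with CD51. Endothelial cells were sorted as cells without GFP, TR119 or CD45 and with SCA1 and CD31. The 4 groups, osteoblasts of tumor-bearing mice, osteoblasts of tumor-free mice and the endothelial cells of each kind of mouse, had 3 arrays each.

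Insulin-like growth factors are secreted peptides that act through the IGF1 receptor, a receptor tyrosine kinase that signals through insulin receptor substrates and PI3 kinase. The IGF2 receptor, also called the cation-independent mannose 6-phosphate receptor, carries IGF2 to lysosomes for degradation and sorts lysosomal enzymes. Binding proteins hold the ligands outside the cell, and proteases such as PAPP-A release them by cutting the binding protein. Osteoblasts make these factors and bone matrix stores them, so that bone resorption can set them free.

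Among the 9 genes that passed the filter on dim genes, both receptors were higher in osteoblasts of tumor-bearing mice than in those of tumor-free mice: Igf1r by 2.10-fold and Igf2r by 1.82-fold. No ligand or binding protein passed the test in that comparison, in which 4.59% of all genes tested were called. In endothelial cells 0 of the 9 genes passed between tumor-bearing and tumor-free mice, as against 0.0241% of all genes tested, and 2 had an unadjusted p below 0.05 (limma). Endothelial cells differed from osteoblasts of tumor-free mice in 4 genes, with more Igf1r and Igfbp3 and less Igf1 and Igfbp5, where 31% of all genes tested were called. Endothelial cells of tumor-bearing mice had more Igf2 and Igfbp2 than osteoblasts of tumor-bearing mice, 2 genes of 9, where 14.9% of all genes tested were called.

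Values are deposited log2 expression values, so that 1 unit is a doubling, and they are compared within a gene, not between genes. Differences were tested with limma over all 12430 genes bright enough to exceed the array's median probe set on 3 or more of the 12 arrays, with adjusted p below 0.05 as the threshold. Each of the 9 tested genes lay above that median on all 12 arrays. Igfbp6, which binds IGF2 in preference to IGF1, did so on 2 arrays and was not tested. The labels call arrays biological replicates, but the sources used here do not say whether mice were pooled on an array or shared between arrays, so that p-values measure only the spread between these arrays. With 3 arrays a group, their number limits the precision. The 4 groups share 1 estimate of the spread per gene, which sets the SE given after ±. That SE can therefore be wider than the spread of the 2 groups compared, or narrower. Leaving out an array outside a comparison can change its p-value but not its difference.

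The 2 sorts carried the markers of their labels. The mean of 7 endothelial markers lay between 10.12 and 10.44 on the endothelial arrays and between 4.82 and 6.04 on the osteoblast arrays. The mean of the 8 measured osteoblast markers lay between 5.92 and 6.38 on the endothelial arrays and between 8.71 and 10.05 on the osteoblast arrays. Arrays of osteoblasts from tumor-free mice resembled each other least, with correlations of 0.867 to 0.908, against 0.946 to 0.969 within the other groups. Other cell types' markers varied among the osteoblast arrays. The mean of 7 macrophage markers was 7.86, 7.44 and 5.10 on the arrays of tumor-bearing mice and 5.04, 9.46 and 9.22 on those of tumor-free mice, and the leukocyte gene Ptprc, which encodes CD45, lay between 4.70 and 7.03 in tumor-bearing mice and between 4.92 and 8.46 in tumor-free mice. The mean of 7 chondrocyte markers was 10.01, 10.72 and 10.66 in tumor-bearing mice and 10.10, 8.66 and 6.42 in tumor-free mice. No listed marker was at 0, because the lowest value in the deposited table was 1.55.

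**Figure D1:**
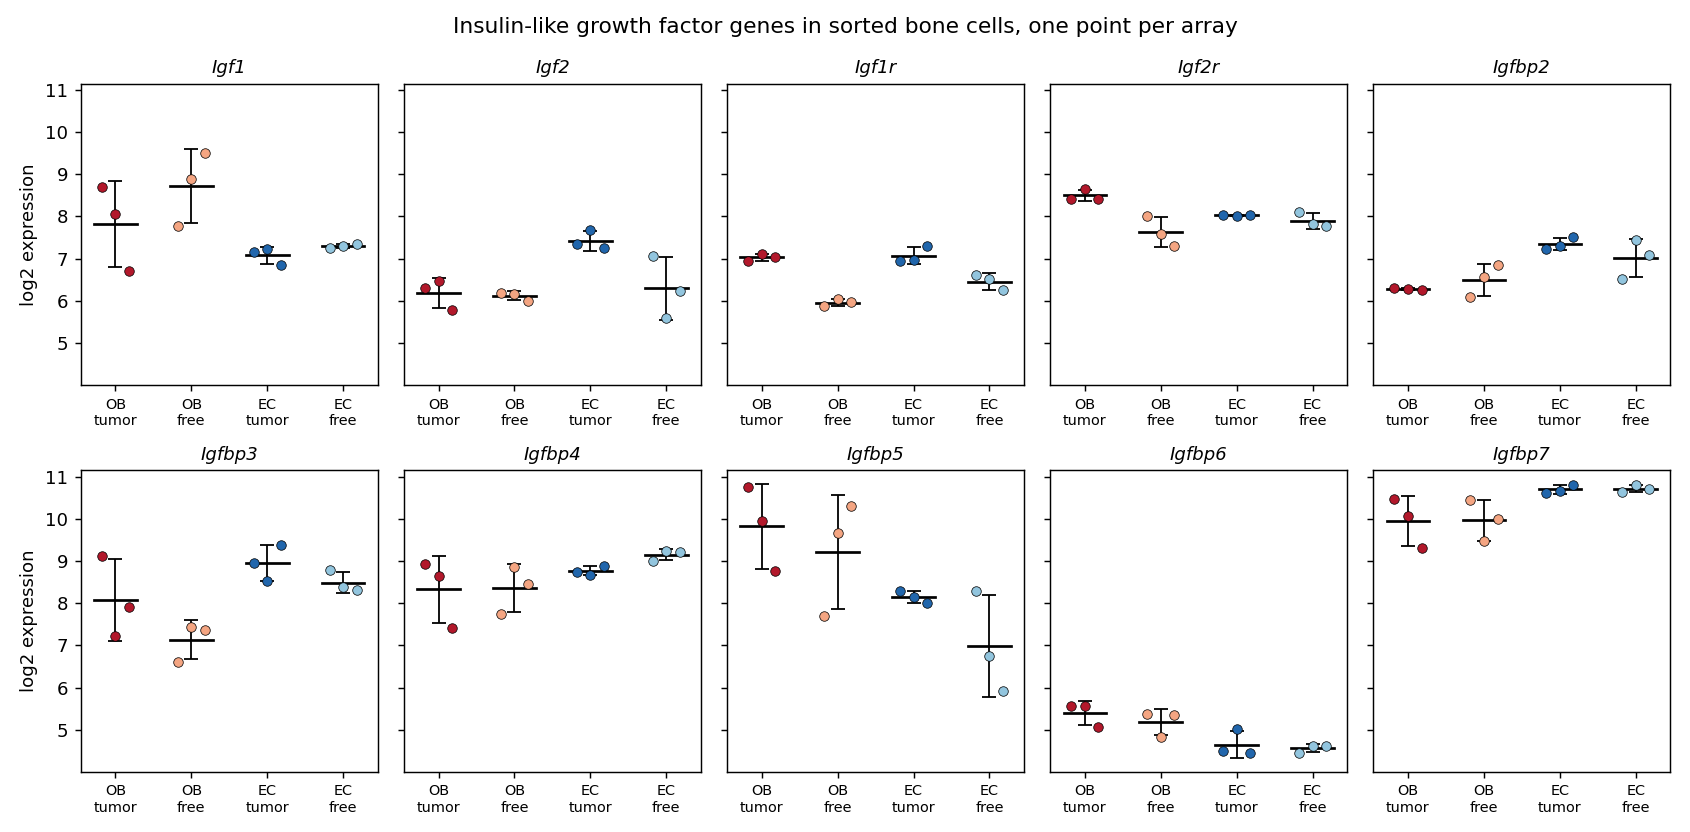
Deposited log2 expression of the 10 genes on each of the 12 arrays, with 1 point per array, a line at each group's mean and whiskers of 1 SD (OB, osteoblasts, and EC, endothelial cells, of tumor-bearing and tumor-free mice). Igf1r and Igf2r lie higher on the 3 osteoblast arrays of tumor-bearing mice than on the 3 of tumor-free mice, and Igf1 and Igfbp5 spread widely among the osteoblast arrays.

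The ligands behaved differently from each other. Igf1, the growth factor induced by growth hormone and the main IGF of adult bone growth, had values of 8.70, 8.06 and 6.70 in osteoblasts of tumor-bearing mice and 7.77, 8.89 and 9.50 in osteoblasts of tumor-free mice. These groups overlapped, and the difference of -0.90 ± 0.49 (SE) did not pass the test (95% interval -1.98 to 0.18, limma adjusted p = 0.28). In bulk samples fewer cells of a type and less RNA per cell cannot be told apart, which holds for every result here. The osteoblast arrays with the most Igf1, replicates 2 and 3 of tumor-free mice, also had the highest macrophage marker means, 9.46 and 9.22. The part of macrophage RNA in the Igf1 values was not tested.

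Endothelial cells had Igf1 values of 7.17, 7.22 and 6.84 in tumor-bearing mice and 7.26, 7.29 and 7.35 in tumor-free mice, without overlap but with a difference of only -0.22 ± 0.49 (adjusted p = 0.999, limma). The SE comes from all 4 groups. The SDs were 0.20 and 0.045 in endothelial cells of tumor-bearing and tumor-free mice, and 1.02 and 0.88 in osteoblasts. In tumor-free mice Igf1 was 2.68-fold lower in endothelial cells than in osteoblasts (-1.42 ± 0.49, adjusted p = 0.0475), and every endothelial array lay below every osteoblast array. That call was near the threshold: it was kept in 3 of the 12 fits that left out 1 array, and ended without each of osteoblast tumor-bearing replicate 2 (adjusted p = 0.0626), osteoblast tumor-free replicates 2 (0.0954) and 3 (0.143), endothelial tumor-bearing replicates 1 (0.0654), 2 (0.0636) and 3 (0.0612), and endothelial tumor-free replicates 1 (0.108), 2 (0.109) and 3 (0.0989). It was also lost with the replicate number as a block (0.0743), with arrays centred on their medians (-1.27, adjusted p = 0.0788), with weights per group (0.0747) and with only the tumor-free arrays (0.0684). In tumor-bearing mice the endothelial value differed from the osteoblast value by -0.74 ± 0.49, with overlapping groups (adjusted p = 0.41).

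Igf2, the fetal growth factor expressed from the paternal allele in mouse, had values of 7.34, 7.67 and 7.24 in endothelial cells from tumor-bearing mice and 7.07, 5.59 and 6.23 in endothelial cells of tumor-free mice. All 3 arrays of tumor-bearing mice lay above all 3 of tumor-free mice, and replicate 1 of the tumor-free mice stood closest. The difference of 1.12 ± 0.32 corresponds to 2.17-fold and had an unadjusted p of 0.00521, but limma's adjusted p over all genes was 0.437. Without endothelial tumor-free replicate 1 the difference was 1.51 and passed (adjusted p = 0.0426). It also passed with array quality weights (1.19, adjusted p = 0.0366), which give the more variable arrays less say, and without replicate 1 of both tumor-free groups (0.0297), a fit added after the data were seen. More of all genes tested were called in these fits too. The share was 0.491% without endothelial tumor-free replicate 1, 3.61% with quality weights and 1.28% without both replicates 1, against 0.0241% in the main fit.

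In osteoblasts Igf2 had values of 6.30, 6.48 and 5.77 in tumor-bearing mice and 6.20, 6.16 and 6.00 in tumor-free mice, which overlapped. Between the cell types of tumor-bearing mice, endothelial cells had 2.35-fold more Igf2 (1.23 ± 0.32, limma adjusted p = 0.0242), and their arrays did not overlap with those of osteoblasts. This call ended without osteoblast tumor-bearing replicate 3 (0.0967) or endothelial tumor-bearing replicates 1 (0.0618), 2 (0.09) or 3 (0.0516). In tumor-free mice the groups overlapped and differed by 0.18 ± 0.32 (adjusted p = 0.688).

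The 2 receptors were the only genes of the system called between osteoblasts of tumor-bearing and tumor-free mice. Igf1r, which transmits the signal of both ligands, had values of 6.95, 7.11 and 7.03 in osteoblasts of tumor-bearing mice and 5.87, 6.05 and 5.96 in osteoblasts of tumor-free mice. The lowest array of tumor-bearing mice, at 6.95, lay above the highest of tumor-free mice, at 6.05, and each group spanned only a small part of that gap. Igf1r rose by 1.07 ± 0.15 or 2.10-fold (95% interval 0.74 to 1.41, limma adjusted p = 0.00604). This call was kept in all 12 fits that left out 1 array, where the highest adjusted p was 0.0351. Among 11 other fits it was lost where the fit held only the arrays of the 2 osteoblast groups (1.07, adjusted p = 0.103). In that fit 0% of all genes tested were called.

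Igf2r, the clearance receptor for IGF2, had values of 8.41, 8.65 and 8.42 in osteoblasts of tumor-bearing mice and 8.01, 7.58 and 7.30 in osteoblasts of tumor-free mice. The groups did not overlap, and the arrays of tumor-free mice were spread more widely. Igf2r rose by 0.86 ± 0.19 or 1.82-fold (adjusted p = 0.0296, limma). The call ended without osteoblast tumor-bearing replicate 1 (adjusted p = 0.0599), 2 (0.116) or 3 (0.0557), osteoblast tumor-free replicate 3 (0.0697) or endothelial tumor-bearing replicate 1 (0.0523). It was also lost with quantile normalization of the arrays (0.69, adjusted p = 0.062) and with weights per group (0.0915). With only the osteoblast arrays it was lost too (0.208), in a fit where 0% of all genes tested were called. With both called, 2 of the 9 tested genes were higher in osteoblasts of tumor-bearing mice and 0 were lower, against 4.59% of all genes tested that were called in either direction, 4.01% that were higher and 0.571% that were lower. Osteoblast groups without overlap were seen in 2 of the 9 genes, these receptors, and in 24.7% of all genes tested.

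The immediate early genes, transcription factors and regulators that tissue dissociation can induce, moved beside the receptors. Their mean over 9 genes was 9.56, 9.65 and 9.50 in osteoblasts of tumor-bearing mice and 9.06, 8.51 and 7.83 in osteoblasts of tumor-free mice. Among the 9, 2 passed the test, Fosb and Nr4a1, in a comparison where 4.59% of all genes tested were called. Within the tumor-free osteoblast arrays Igf2r followed the same order as that mean, whereas Igf1r stayed between 5.87 and 6.05. Chondrocyte markers also ran in that order there, at 10.10, 8.66 and 6.42. Of these 7 markers 1, Col2a1, passed between the osteoblast groups, 3.79-fold higher in tumor-bearing mice (limma adjusted p = 0.0194). The mean of 7 smooth muscle and pericyte markers was 8.43, 8.08 and 7.18 in tumor-bearing mice and 6.57, 6.55 and 6.58 in tumor-free mice, without overlap, and 2 of the 7 passed. The part of any of these in the receptor results was not tested.

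Endothelial cells had Igf1r values of 6.94, 6.97 and 7.31 in tumor-bearing mice and 6.61, 6.52 and 6.24 in tumor-free mice. The groups did not overlap, and the difference was 0.61 ± 0.15 or 1.53-fold. Its unadjusted p was 0.00201 and limma's adjusted p 0.321, and with array quality weights it passed (0.60, adjusted p = 0.0282). With those weights 3.61% of all genes tested were called, against 0.0241% in the main fit. Igf2r had endothelial values of 8.02, 8.01 and 8.03 in tumor-bearing mice and 8.11, 7.81 and 7.76 in tumor-free mice, which overlapped (0.12 ± 0.19, adjusted p = 0.999). The immediate early mean was 9.57, 9.59 and 9.53 in these cells of tumor-bearing mice and 9.56, 8.596 and 8.52 in those of tumor-free mice, so that tumor-free replicate 1 stood with the tumor-bearing arrays. Within the tumor-free endothelial arrays Igf1r and Igf2r followed the same order as that mean, and Igf2 did not. None of the 9 immediate early genes was called in endothelial cells, where 0.0241% of all genes tested were called. All 9 were higher in tumor-bearing mice, by log2 differences of 0.39 (Ier2) to 1.27 (Atf3). Their part in the Igf1r, Igf2r and Igf2 values was not tested.

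Across the 9 tested genes, 0 were called in endothelial cells between tumor-bearing and tumor-free mice, where 0.0241% of all genes tested were called. Unadjusted p was below 0.05 for Igf2 and Igf1r, 2 of the 9, and for 6.93% of all genes tested. Groups without overlap were seen in 4 of the 9, and in 18.8% of all genes tested. Igf2 and Igf1r were the higher ones, against 7.84% of all genes tested, and Igf1 and Igfbp4 the lower ones, against 10.9%.

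Whether the tumor difference itself was larger in osteoblasts than in endothelial cells was tested as the difference of the differences. It passed for 0 of the 9 genes, against 0.209% of all genes tested, and had an unadjusted p below 0.05 for 2, Igf2 and Igf2r, against 16% of all genes tested. For Igf1r the osteoblast difference exceeded the endothelial difference by 0.46 ± 0.22 (95% interval -0.02 to 0.93, limma adjusted p = 0.325). For Igf2r the excess was 0.74 ± 0.26 (adjusted p = 0.224), and it passed without osteoblast tumor-free replicate 1 (0.93, adjusted p = 0.0435). For Igf2 the osteoblast difference was the smaller, by -1.06 ± 0.46 (adjusted p = 0.289). In the average of both cell types, a comparison added after the data were seen, Igf1r was higher by 0.84 ± 0.11 or 1.79-fold (adjusted p = 0.0146), 1 of 9 genes called, against 1.33% of all genes tested. That call ended without endothelial tumor-free replicate 2 (0.0619) or 3 (0.0516).

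Between the cell types, Igf1r was 1.41-fold higher in endothelial cells than in osteoblasts of tumor-free mice (0.50 ± 0.15, adjusted p = 0.0315). In tumor-bearing mice the same contrast was 0.04 ± 0.15, with overlapping groups (95% interval -0.29 to 0.38, adjusted p = 0.921), so the order of the 4 group means was endothelial cells of tumor-bearing mice 7.07, osteoblasts of tumor-bearing mice 7.03, endothelial cells of tumor-free mice 6.46 and osteoblasts of tumor-free mice 5.96. The tumor-free call ended without osteoblast tumor-free replicates 1 (0.0666) and 3 (0.0592) and endothelial tumor-free replicates 1 (0.105) and 2 (0.0935). It was also lost with the replicate block (0.0552), array quality weights (0.133), weights per group (0.101), only the tumor-free arrays (0.0807) and without replicate 1 of both tumor-free groups (0.167). Igf2r did not pass between the cell types in tumor-free mice (0.27 ± 0.19, adjusted p = 0.28) or in tumor-bearing mice (-0.47 ± 0.19, adjusted p = 0.125), although all 3 endothelial arrays of tumor-bearing mice lay below all 3 osteoblast arrays. That contrast passed without osteoblast tumor-free replicate 1 (adjusted p = 0.0477), an array outside it, with the difference unchanged.

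**Figure D2:**
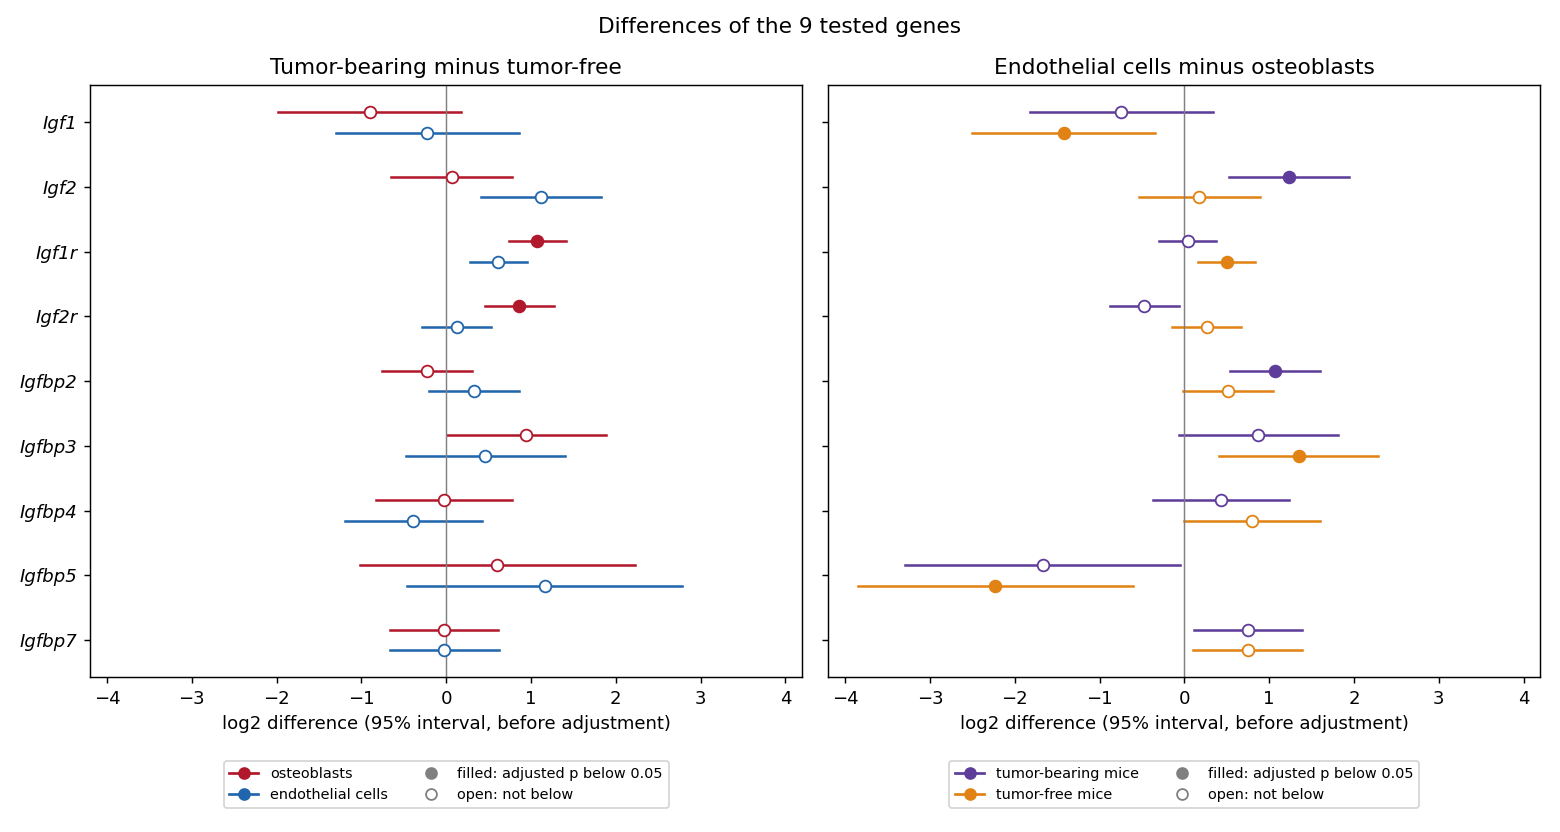
Log2 differences of the 9 tested genes with 95% intervals before adjustment, tumor-bearing minus tumor-free on the left and endothelial cells minus osteoblasts on the right. Filled points have limma adjusted p below 0.05: on the left only Igf1r (1.07) and Igf2r (0.86), both in osteoblasts, and on the right Igf1, Igf1r, Igfbp3 and Igfbp5 in tumor-free mice and Igf2 and Igfbp2 in tumor-bearing mice.

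The promoters of the 2 receptors are shown because these were the genes of the system called higher in osteoblasts of tumor-bearing mice. The sequences are RefSeq's, from build GRCm38.p6, and cover the 250 bases before the gene's start, read 5′ to 3′ on the gene's strand. The Igf1r window is chr7:67952007-67952256 on the plus strand and the Igf2r window is chr17:12769707-12769956 on the minus strand. Capitals mark matches to GGGCGG (the GC box) and CACGTG (an E-box) on either strand, and TATAAA was searched as well; no matches overlapped in these windows. These motifs were chosen after the sequences were seen.
Igf1r: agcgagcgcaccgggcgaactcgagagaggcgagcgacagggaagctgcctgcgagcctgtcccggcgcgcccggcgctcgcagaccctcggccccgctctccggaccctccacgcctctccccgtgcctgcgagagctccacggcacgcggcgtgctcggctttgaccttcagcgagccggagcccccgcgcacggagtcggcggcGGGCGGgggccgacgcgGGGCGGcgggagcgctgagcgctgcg
Igf2r: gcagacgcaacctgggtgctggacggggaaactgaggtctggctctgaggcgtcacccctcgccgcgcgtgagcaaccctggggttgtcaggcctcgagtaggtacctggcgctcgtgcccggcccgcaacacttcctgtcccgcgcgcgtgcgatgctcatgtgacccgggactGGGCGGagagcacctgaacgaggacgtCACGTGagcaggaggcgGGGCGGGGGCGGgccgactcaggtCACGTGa
Igf1r's window held GGGCGG 2 times and neither of the others, and its GC content of 77.6% was above that of 97.6% of promoters. Igf2r's held GGGCGG 3 times and CACGTG 2 times, with a GC content of 69.2%, above that of 89.6%. Among 32851 promoter windows of the same length, 32.7% held GGGCGG, 6.02% CACGTG and 12.4% TATAAA, and the median GC content was 52.4%. Igfbp7 and Igfbp2 did not pass in either tumor comparison. Igfbp7 had 4 matches to GGGCGG in its window, and 1 window of Igfbp2 held GGGCGG 3 times and CACGTG 1 time. Igf1, Igfbp3 and Igfbp5 had no match to any of the 3. A match is a description of the letters in the window and says nothing about binding.

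Of the binding proteins, none passed between tumor-bearing and tumor-free mice in either cell type. Igfbp3, the main carrier of IGFs in blood, had values of 9.12, 7.21 and 7.91 in osteoblasts of tumor-bearing mice and 6.62, 7.44 and 7.36 in osteoblasts of tumor-free mice. Replicate 1 of the tumor-bearing mice stood highest and replicate 2 lay among the tumor-free arrays. The difference of 0.94 ± 0.43 had an unadjusted p of 0.0487 and an adjusted p of 0.202 by limma.

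Endothelial cells had Igfbp3 values of 8.95, 8.53 and 9.37 in tumor-bearing mice and 8.78, 8.38 and 8.30 in tumor-free mice, which overlapped (0.46 ± 0.43, adjusted p = 0.994). In tumor-free mice Igfbp3 was 2.55-fold higher in endothelial cells than in osteoblasts, with no overlap (1.35 ± 0.43, adjusted p = 0.035). The call ended without osteoblast tumor-free replicate 1 (0.0893) or 3 (0.0506), endothelial tumor-bearing replicate 1 (0.0502), or endothelial tumor-free replicate 1 (0.105), 2 (0.0759) or 3 (0.0677). It was also lost with quantile normalization (1.04, adjusted p = 0.086), array quality weights (0.0986), weights per group (0.083) and without replicate 1 of both tumor-free groups (0.195). In tumor-bearing mice the groups overlapped (0.87 ± 0.43, adjusted p = 0.233), and the contrast passed without osteoblast tumor-bearing replicate 1 (1.39, adjusted p = 0.021).

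Igfbp5, a binding protein with high affinity for bone matrix, had values of 10.75, 9.96 and 8.76 in osteoblasts of tumor-bearing mice and 7.69, 9.66 and 10.30 in osteoblasts of tumor-free mice. It ranged over about 3 log2 units in those 6 arrays, with tumor-free replicate 1 the lowest, and the groups overlapped. The difference of 0.60 ± 0.73 did not pass (95% interval -1.01 to 2.22, limma adjusted p = 0.637), and was -0.16 without osteoblast tumor-free replicate 1. The mean of 6 reticular stroma markers was 9.48, 8.80 and 7.99 in osteoblasts of tumor-bearing mice and 7.51, 8.62 and 8.94 in osteoblasts of tumor-free mice, so the 6 osteoblast arrays had the same order in Igfbp5 and in that mean. None of the 6 markers was called in that comparison, and the part of reticular cells in the Igfbp5 values was not tested.

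**Figure D3:**
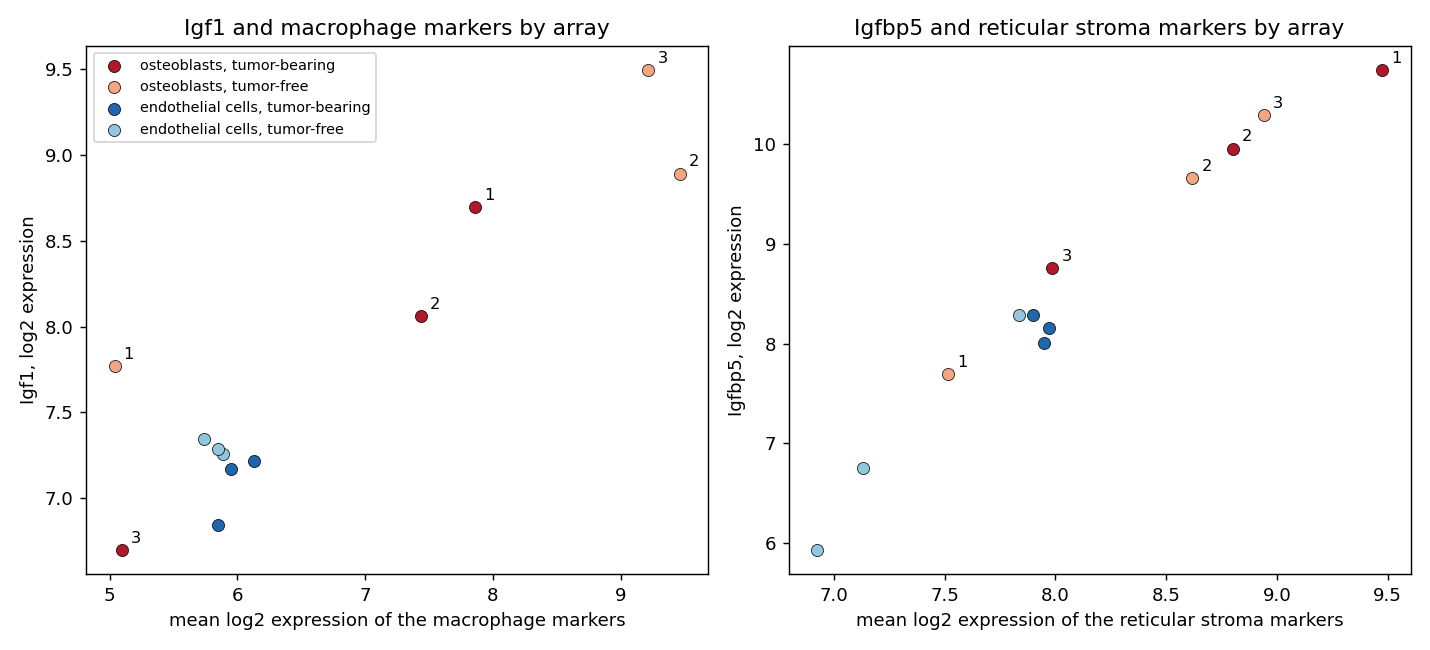
Igf1 against the mean of 7 macrophage markers (left) and Igfbp5 against the mean of 6 reticular stroma markers (right), both log2 expression, with 1 point per array coloured by group and osteoblast arrays numbered by replicate. The 6 osteoblast arrays stand in the same order on both axes on the right, and the 2 osteoblast arrays highest on the left are tumor-free replicates 2 and 3.

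Endothelial cells had Igfbp5 values of 8.29, 8.15 and 8.003 in tumor-bearing mice and 8.29, 6.75 and 5.93 in tumor-free mice. Replicate 1 of the tumor-free mice lay at the level of the tumor-bearing arrays and the others far below (1.16 ± 0.73, adjusted p = 0.884). In tumor-free mice Igfbp5 was 4.69-fold lower in endothelial cells than in osteoblasts (-2.23 ± 0.73, adjusted p = 0.0413), the largest difference of the 9 genes in any comparison between groups, although endothelial replicate 1 lay above osteoblast replicate 1. The call ended without osteoblast tumor-bearing replicate 2 (0.0567), osteoblast tumor-free replicate 2 (0.0921) or 3 (0.122), endothelial tumor-bearing replicate 1 (0.0575), 2 (0.0566) or 3 (0.0558), or endothelial tumor-free replicate 2 (0.11) or 3 (0.139). It was also lost with the replicate block (0.063), centring (-2.08, adjusted p = 0.0594), weights per group (0.0899) and only the tumor-free arrays (0.114). The value was -2.99 without osteoblast tumor-free replicate 1, -2.88 without endothelial tumor-free replicate 1 and -3.64 without both. In tumor-bearing mice all endothelial arrays lay below all osteoblast arrays, by -1.67 ± 0.73 (adjusted p = 0.177).

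Igfbp5 was the only gene of the system whose values had an SD above 1 over the 12 arrays. After each gene's own mean was subtracted, the 2 other tested genes closest to it over the 12 arrays were Gdpd2, a glycerophosphodiesterase, with a root mean square difference of 0.299 log2 units, and Kng1, the kininogen precursor of bradykinin, with 0.307. Gdpd2 had values of 10.80, 10.31 and 9.03 in osteoblasts of tumor-bearing mice and 8.32, 10.51 and 10.77 in osteoblasts of tumor-free mice, and Kng1 had 9.57, 8.34 and 7.24 in the tumor-bearing and 6.23, 8.31 and 7.89 in the tumor-free osteoblasts. Both were lowest on the tumor-free replicate 1 array among the osteoblasts, as Igfbp5 was. These genes were chosen for their likeness, so their values are a description.

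Igfbp2, a binding protein with an integrin-binding motif, had values of 7.22, 7.30 and 7.50 in endothelial cells from tumor-bearing mice and 6.30, 6.29 and 6.24 in osteoblasts of tumor-bearing mice. The groups were well separated, and Igfbp2 was 2.09-fold higher in endothelial cells (1.07 ± 0.24, limma adjusted p = 0.0115). The call ended without endothelial tumor-bearing replicate 3 (0.0513). Igfbp2 and Igf2 were the 2 genes of 9 called between the cell types of tumor-bearing mice, against 14.9% of all genes tested in either direction and 8.13% that were higher. In that comparison 5 of the 9 genes had groups without overlap, against 35.9% of all genes tested.

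In tumor-free mice Igfbp2 had values of 6.52, 7.44 and 7.08 in endothelial cells and 6.09, 6.56 and 6.85 in osteoblasts, which overlapped (0.52 ± 0.24, adjusted p = 0.121), and the contrast passed without endothelial tumor-free replicate 1 (0.76, adjusted p = 0.0407). The 4 genes called between the cell types of tumor-free mice, Igf1, Igf1r, Igfbp3 and Igfbp5, compare with 31% of all genes tested. Igf1r and Igfbp3 were higher in endothelial cells, as were 18.2% of all genes tested, and Igf1 and Igfbp5 were lower, as were 12.7%. In all, 5 of the 9 genes had groups without overlap there, against 47.3%. Igfbp2 and Igfbp5 are neighbours on chromosome 1 with 0 protein-coding genes between them in the RefSeq gene table, and their called cell type differences had opposite signs, in different comparisons.

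Igfbp4, which restrains IGF action until PAPP-A cuts it, had values of 8.75, 8.67 and 8.88 in endothelial cells from tumor-bearing mice and 8.99, 9.24 and 9.22 in endothelial cells of tumor-free mice, without overlap (-0.39 ± 0.36, adjusted p = 0.994). Osteoblasts had 8.92, 8.65 and 7.42 in tumor-bearing mice and 7.74, 8.86 and 8.46 in tumor-free mice. The osteoblast groups overlapped throughout and differed by -0.02 ± 0.36. The SDs were 0.11 and 0.14 in endothelial cells of tumor-bearing and tumor-free mice, and 0.80 and 0.57 in osteoblasts. Between the cell types of tumor-free mice the arrays did not overlap, yet the difference of 0.80 ± 0.36 did not pass (adjusted p = 0.113). It passed without osteoblast tumor-bearing replicate 3 (adjusted p = 0.0391), an array outside this comparison, with the difference still 0.80.

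Igfbp7, a low-affinity IGF-binding protein of vascular basement membrane, had values of 10.61, 10.67 and 10.81 in endothelial cells from tumor-bearing mice and 10.63, 10.80 and 10.71 in endothelial cells of tumor-free mice. Osteoblasts had 10.46, 10.06 and 9.32 in tumor-bearing mice and 10.44, 9.47 and 10.00 in tumor-free mice. Within each cell type the groups overlapped, with differences of -0.02 ± 0.29 in both. The SDs were 0.10 and 0.085 in endothelial cells of tumor-bearing and tumor-free mice, and 0.58 and 0.49 in osteoblasts. All endothelial arrays lay above all osteoblast arrays in tumor-bearing mice (0.75 ± 0.29, adjusted p = 0.121) and in tumor-free mice (0.75 ± 0.29, adjusted p = 0.0714), and neither passed by limma. The tumor-free contrast passed without osteoblast tumor-bearing replicate 3 (0.0361), an array outside it that left the difference unchanged. It also passed without osteoblast tumor-free replicate 1 (0.0278), and the tumor-bearing contrast passed without osteoblast tumor-bearing replicate 1 (0.0441).

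Igfbp6 was dim everywhere. Its values were 5.55, 5.56 and 5.07 in osteoblasts of tumor-bearing mice and 5.38, 4.83 and 5.36 in osteoblasts of tumor-free mice. Endothelial cells had 4.49, 5.02 and 4.44 in tumor-bearing mice and 4.46, 4.62 and 4.62 in tumor-free mice. In each comparison between cell types all endothelial arrays lay below all osteoblast arrays, and the tumor groups overlapped in both cell types.

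The median log2 difference of the 9 tested genes was 0.06 in osteoblasts and 0.33 in endothelial cells between tumor-bearing and tumor-free mice, where the median of all genes tested was -0.0014 and -0.02. It was 0.50 between the cell types of tumor-free mice and 0.44 in tumor-bearing mice, against 0.03 and 0.00 for all genes tested. Differences between cell types of tumor-free mice depend on scaling: centring each array on its median raised the median of all genes there by 0.15.

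Around these genes lie the proteases, signal carriers and growth hormone genes of the pathway. Of 39 such genes in 5 lists, 31 were tested, 5 were too dim and 3 were not analysed here. In osteoblasts 4 of the 31 were higher in tumor-bearing mice and 0 were lower (limma, adjusted p below 0.05), against 4.59% of all genes tested, with a median difference of 0.45. Grb10, an adaptor that inhibits insulin and IGF1 receptor signaling, had values of 8.41, 8.68 and 8.71 in tumor-bearing and 7.93, 7.72 and 7.68 in tumor-free osteoblasts, and rose 1.77-fold (adjusted p = 0.0154). Pik3ca, the catalytic subunit of PI3 kinase, had 7.86, 7.75 and 7.87 against 6.88, 6.10 and 6.88 in tumor-free osteoblasts and rose 2.31-fold (0.0133).

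The PI3 kinase regulatory subunit Pik3r1 rose 1.74-fold (9.93, 9.74 and 9.42 against 9.02, 8.84 and 8.84 in tumor-free osteoblasts, adjusted p = 0.0396). Crim1, a membrane protein with an IGFBP-type domain, rose 2.94-fold (7.57, 8.11 and 7.60 against 7.29, 5.65 and 5.67, adjusted p = 0.041). All 4 genes had groups without overlap, as had 24.7% of all genes tested. Among the pathway genes not called in osteoblasts, Foxo1 was higher and Cish and Igfals were lower in tumor-bearing mice without overlap. Grb10's call ended without osteoblast tumor-bearing replicate 2 (0.0732), and Pik3ca's without the same array (0.0525). Pik3r1 kept its call in 4 of the 12 fits that left out 1 array and Crim1 in 1. With only the osteoblast arrays in the fit all 4 calls were lost, with adjusted p of 0.151 for Grb10, 0.147 for Pik3ca, 0.19 for Pik3r1 and 0.254 for Crim1. In that fit 0% of all genes tested were called. Weights per group ended those of Grb10 (0.0889), Pik3r1 (0.176) and Crim1 (0.0643). Pik3r1 and Crim1 were also lost with the replicate block (0.0658 for Pik3r1, 0.0572 for Crim1) and with quantile normalization (0.0508 for Pik3r1, 0.0658 for Crim1). In endothelial cells 0 of the 31 passed between tumor-bearing and tumor-free mice. The insulin receptor substrate Irs1 was 2.08-fold higher (adjusted p = 0.601, limma). Irs1, Irs2, Jak2 and Cish were higher and Grb10 was lower without overlap, as against 18.8% of all genes tested without overlap in either direction.

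**Figure D4:**
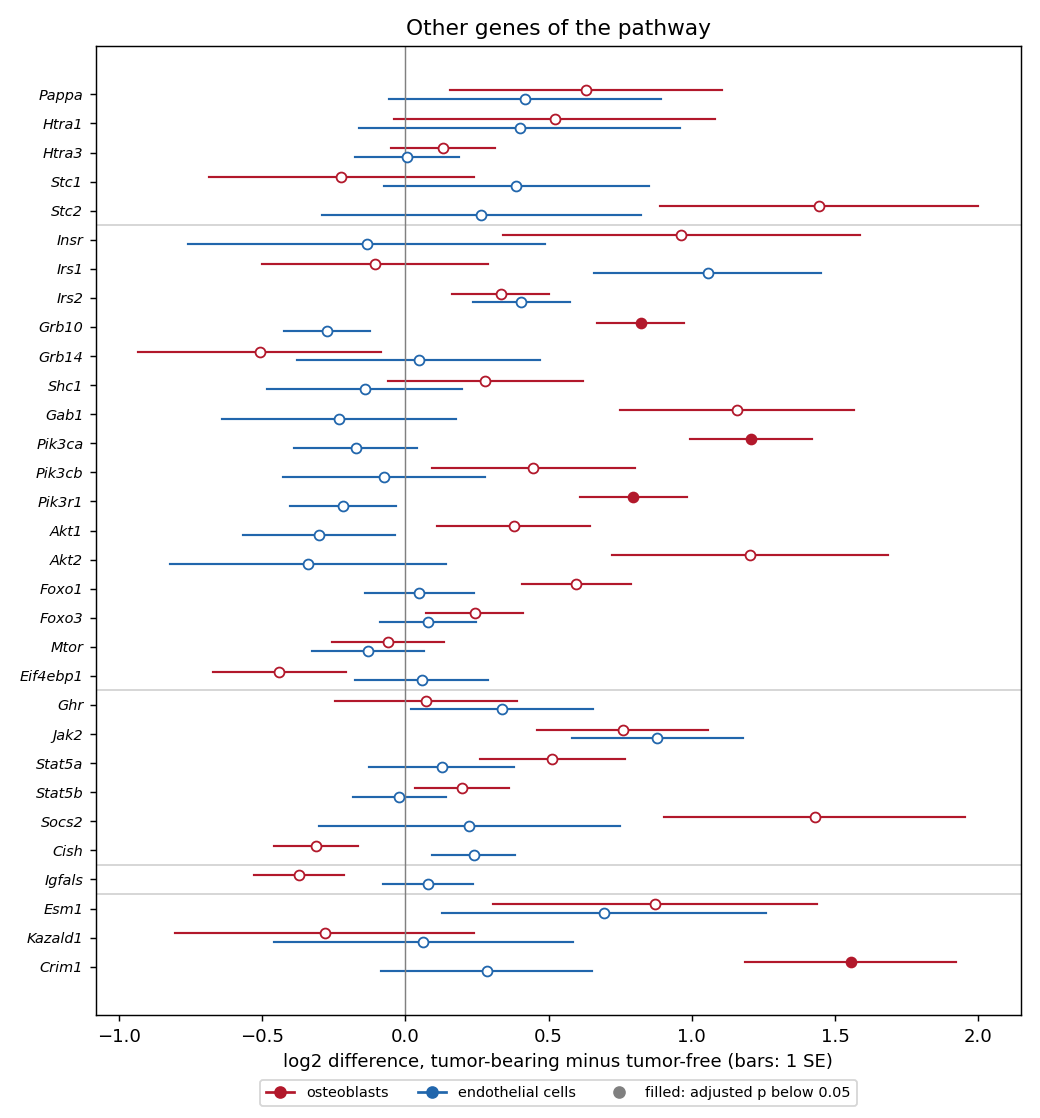
Log2 differences of the tested pathway genes, tumor-bearing minus tumor-free, in osteoblasts and endothelial cells, with bars of 1 SE and grey lines between the lists. Filled points mark limma adjusted p below 0.05, which Grb10, Pik3ca, Pik3r1 and Crim1 reached in osteoblasts and no gene reached in endothelial cells.

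Between the cell types of tumor-free mice, 7 of the 31 genes were higher in endothelial cells and 10 lower, where 31% of all genes tested were called. Insr, the insulin receptor, was 11.7-fold higher in endothelial cells than in osteoblasts (adjusted p = 0.00232), and the receptor substrate Irs1 was 10.1-fold lower (0.000189). Insr had values of 11.09, 11.17 and 10.96 in endothelial cells and 9.09, 7.79 and 5.69 in osteoblasts, so its size depended on the osteoblast arrays. The log2 difference of 3.55 was 4.34 without osteoblast tumor-free replicate 1 and 2.64 without replicate 3. Grb14, an adaptor that inhibits the insulin receptor, was 5.08-fold lower, and Kazald1, a secreted protein with an IGFBP-type domain, was 5.78-fold lower. Crim1 was 4.48-fold higher. Stc1, a stanniocalcin that inhibits PAPP-A, was 3.84-fold higher, while its paralog Stc2 was 3.05-fold lower and the protease gene Pappa 3.11-fold lower. The other 4 higher genes, Pik3ca, Pik3cb, Akt1 and Foxo1, and the other 5 lower genes, Htra3, Irs2, Foxo3, Ghr and Igfals, differed by 1.46-fold to 2.43-fold. In the 12 fits that left out 1 array, Stc2 kept its call in 2, Akt1 in 2, Foxo1 in 5, Pik3cb in 7, Pappa, Foxo3 and Ghr in 8 each and Igfals in 10, with adjusted p up to 0.143, while the other 9 kept theirs in all 12. Without osteoblast tumor-free replicate 1 the log2 difference of Stc2 was -0.94 (adjusted p = 0.12), against -1.61 with all arrays and -2.21 without replicate 3, and that of Kazald1 was -3.12, against -2.53. In the other fits Stc2, Akt1 and Foxo1 kept their calls in 4 of 11 each, Foxo3 in 6, Pik3cb and Ghr in 9 each, Pappa and Stc1 in 10 each, and Igfals in 8 of 10.

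In tumor-bearing mice 2 of the 31 were higher in endothelial cells, Stc1 by 5.87-fold and Insr by 5.48-fold, and 11 were lower, where 14.9% of all genes tested were called. Stc2 was 6.91-fold lower, Akt2, an AKT kinase, 5.57-fold lower, Kazald1 4.55-fold lower, Irs1 4.52-fold lower and Pappa 3.60-fold lower. The others that were lower, Htra3, Irs2, Grb10, Grb14, Pik3r1 and Foxo3, differed by 1.54-fold to 3.46-fold. Of these 13 genes, Pik3r1 kept its call in 3 of the 12 fits that left out 1 array, Insr in 7, Pappa in 8, Irs2 in 9, and Grb14, Foxo3 and Kazald1 in 10 each, with adjusted p up to 0.168. In the 11 other fits Pik3r1 kept its call in 5, and the other 12 genes kept theirs in each.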

How the data were processed

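RNA from the sorted cells was amplified and labelled with biotin per the labels' protocols, and hybridised to arrays with 34760 probe sets. The table the authors deposited holds log2 expression values made with affy, per the submitters' processing notes. The sources used here do not name its version, background correction or normalization. Groups came from the sample titles, and 0 of 66 array pairs held identical values. Genes were named from probe sets with 1 gene symbol, taking the one with the highest mean per gene. Of 19937 genes, 12430 exceeded the array's median probe set on 3 or more arrays and were tested with limma 3.58.1 in R 4.3.3. The fit had 1 mean per group, default eBayes, two-sided tests and Benjamini-Hochberg adjustment over all tested genes. It had 8 residual and 2.89 prior degrees of freedom. The script was tested on simulated data.

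The genes named are the 10 of the system, the pathway genes called in any comparison between groups or without overlap between tumor-bearing and tumor-free mice, the 2 genes most like a member with an SD over 1, and markers beside a result. Other fits changed the normalization, centring, filter, probe set, spread, weights, arrays or replicate block. The genes, lists and tests were chosen with earlier results of these data known.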

Additional observations from a re-analysis of the deposited data

How the results depend on the processing

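The number of the 9 genes called per comparison depended on the fit. In osteoblasts, 2 calls between tumor-bearing and tumor-free mice became 1 with quantile normalization, 1 with weights per group and 0 with only the arrays compared. In these fits 4.44%, 1.05% and 0% of all genes tested were called, against 4.59% in the main fit. Leaving out each array gave 1 to 2, and where it gave 1, 0.893% to 3.02% of all genes tested were called. In endothelial cells 0 calls became 2 (Igf1r and Igf2) with array quality weights, where 3.61% of all genes tested were called, against 0.0241% in the main fit. They became 1 (Igf2) without replicate 1 of both tumor-free groups, a fit added after seeing the data, where 1.28% were called. Leaving out each array gave 0 to 1, and without endothelial tumor-free replicate 1 0.491% of all genes tested were called. Between the cell types of tumor-free mice, 4 calls became 1 with the replicate block, where 26.8% of all genes tested were called, against 31% in the main fit. They became 0 with weights per group, 1 with only the arrays compared and 2 without both tumor-free replicates 1. The number was 0 to 6 when each array was left out. It was 5 with no filter and 3 with quantile normalization (Igfbp3 lost), centring (Igf1 and Igfbp5 lost, Igfbp7 gained) or array quality weights (Igf1r and Igfbp3 lost, Igfbp7 gained). In tumor-bearing mice 2 calls became 6 with array quality weights and 4 without both tumor-free replicates 1, and 0 to 4 when each array was left out. The difference of differences had 0 calls in 10 other fits, and 0 to 1 leaving out each array. The average over both cell types had 1 call, 2 with array quality weights and 3 without both tumor-free replicates 1, and 0 to 2 leaving out each array. In the main fit 31% of all genes tested were called between the cell types of tumor-free mice, 14.9% in tumor-bearing mice and 1.33% in the average. These shares can also change from fit to fit and are not given here for each. The counts alone are therefore no result about the 9 genes.

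The sign changed only for values near 0 or far from passing. In osteoblasts, tumor-bearing minus tumor-free, Igf2 was -0.0027 with quantile normalization. Igfbp4 and Igfbp7 were 0.034 and 0.0337 with centring. Igfbp7 was 0.16 with array quality weights and 0.21 without both tumor-free replicates 1, where Igfbp5 was -0.16. In endothelial cells Igfbp7 was 0.024 with quantile normalization. In the endothelial minus osteoblast contrast, Igf2r was -0.0496 with quantile normalization and Igf2 was -0.17 without both tumor-free replicates 1, both in tumor-free mice, and Igf1r in tumor-bearing mice was -0.041 with quantile normalization and -0.069 with array quality weights. Over the fits that left out 1 array, the osteoblast tumor difference ranged from -0.084 to 0.27 for Igf2, -0.33 to 0.43 for Igfbp4, -0.28 to 0.29 for Igfbp7 and -0.16 to 1.14 for Igfbp5, and the endothelial one from -0.077 to 0.023 for Igfbp7. The cell type contrast ranged from -0.21 to 0.53 for Igf2 in tumor-free mice, and in tumor-bearing mice from -0.019 to 0.73 for Igfbp4 and -0.077 to 0.11 for Igf1r.

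Deviations of arrays with the same replicate number correlated at -0.26 to 0.09 and those of arrays with different numbers at -0.18 to 0.25, and the numbers were not taken to pair the samples. The extremes of -0.26, -0.18 and 0.25 came from osteoblasts of tumor-bearing against tumor-free mice, whose arrays cannot share a mouse. Between the cell types of tumor-free mice, replicates 1 (0.095) and 2 (0.074) correlated best with their own number and replicate 3 did not. In tumor-bearing mice endothelial replicates 1 (0.002) and 2 (0.071) correlated best with the osteoblast array of their own number and replicate 3 did not. Whether these arrays share mice is not known from the sources used here. The cause of these changes was not tested.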
